A study of Mus musculus with 2 samples.

Results

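Mir532, Mir188, Mir362, Mir501 and Mir500 are 5 microRNA genes that lie together in the X-linked gene Clcn5. They were picked by gene name in GENCODE M21, and all 5 were found among the 2202 microRNA gene rows of each deposited count file. The counts come from small RNA, under 30 bases, of the gastrocnemius, the large calf muscle. The tissue was taken from adult male mice labelled 5xFAD/CAST, aged 8 to 10 months. 5xFAD is a transgenic model of brain amyloid, and CAST an inbred strain derived from wild mice. Whether the sampled animals carried the transgene is not stated in the labels. There is 1 group with 2 libraries, numbered as biological replicates 1 and 2 and tied to a single donor record. The labels do not say that these were separate animals. The p-values below therefore measure only the difference between these 2 libraries, which may be technical, and no condition was compared.

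MicroRNAs are cut from hairpin precursors, and genes that sit close together on 1 strand are often carried on a shared primary transcript. Each hairpin can yield a mature RNA from its 5p arm and another from its 3p arm. Bases 2 to 8 of the mature RNA, the seed, do most of the pairing with target messages. Clcn5 encodes ClC-5, an endosomal chloride and proton exchanger whose loss causes Dent disease in humans. Mir501 has been described in mouse muscle progenitor cells during regeneration. Mir188 has been linked, in mouse bone marrow stromal cells, to the choice between bone and fat. Mir532, Mir362 and Mir500 have been studied mainly in human tumours.

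The 5 hairpins lie on the minus strand of chromosome X, within 10815 bases, and no exon of Clcn5 overlaps them. In the order of transcription they are Mir532 (ENSMUSG00000070139.1, chrX:7248402-7248497), Mir188 (ENSMUSG00000065398.1, chrX:7247989-7248056), Mir362 (ENSMUSG00000070100.1, chrX:7241982-7242046), Mir501 (ENSMUSG00000076251.1, chrX:7241243-7241351) and Mir500 (ENSMUSG00000070108.2, chrX:7237683-7237774) of mm10. All sit in a single intron of 103648 bases, which is intron 3 of a coding transcript with 15 exons and intron 2 of another with 7 exons. The remaining coding transcript of Clcn5, with 12 exons, begins downstream of the cluster and does not span it. Mir532 and Mir188 are 345 bases apart, and Mir362 and Mir501 are 630 bases apart. A gap of 5942 bases separates these pairs, and Mir500 follows 3468 bases after Mir501.

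The mature sequences are shown because their likeness decides whether reads of 1 gene could be taken for another. They are RefSeq's, on GRCm38.p6, which places all 5 hairpins exactly where GENCODE does. Mir532 yields miR-532-5p and miR-532-3p, and the other genes likewise have an RNA from each arm. The sequence of miR-532-5p was not analysed here. Capitals mark the seed, and each sequence is written 5′ to 3′:
miR-532-3p: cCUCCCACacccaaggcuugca
miR-188-5p: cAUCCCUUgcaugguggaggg
miR-188-3p: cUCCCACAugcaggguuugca
miR-362-5p: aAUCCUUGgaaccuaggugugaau
miR-362-3p: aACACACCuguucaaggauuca
miR-501-5p: aAUCCUUUgucccugggugaaa
miR-501-3p: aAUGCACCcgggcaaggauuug
miR-500-5p: aAUCCUUGcuaucugggugcuuagu
miR-500-3p: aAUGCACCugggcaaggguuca

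These 9 mature RNAs carry 7 distinct seeds. miR-501-3p and miR-500-3p share the seed AUGCACC, which no other mature RNA in the RefSeq table has among 1738 entries. miR-362-5p and miR-500-5p share AUCCUUG, while the seed of miR-501-5p, AUCCUUU, is in no other entry. The seeds of miR-532-3p and miR-188-3p are offset by 1 base within a shared run of 8, CUCCCACA. Outside the cluster, the seed of miR-362-3p is also that of miR-329-3p. Mir329, a gene of the Dlk1-Dio3 region, had 8 reads in each library. The seed of miR-188-5p is also that of miR-7061-3p, whose gene had 1 read in replicate 1 and 0 in replicate 2.

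Among these 9, miR-501-3p and miR-500-3p are the most alike, with 18 of 22 positions equal. Counted from 1 at the 5′ end, with the base of miR-501-3p first, the differences are C9U, A18G, U21C and G22A. The hairpins of Mir501 and Mir500, written below 5′ to 3′ with both mature arms in capitals, share a longest run of 14 bases:
Mir501: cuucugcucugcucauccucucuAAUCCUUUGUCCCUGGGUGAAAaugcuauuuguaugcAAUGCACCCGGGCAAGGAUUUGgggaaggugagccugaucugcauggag
Mir500: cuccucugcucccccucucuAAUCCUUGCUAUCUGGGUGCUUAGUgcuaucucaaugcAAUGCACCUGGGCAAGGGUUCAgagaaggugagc

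No pair of the 5 hairpins shares a longer run, and 0 of the 5 share 20 bases with any microRNA gene at another place. By contrast, 1087 of the 2202 genes do. The 9 mature sequences were each found in their own hairpin and in no other of 141767 GENCODE transcripts, on either strand. Intronic and intergenic sequence was not searched. Reads that align to several places, 60.2% of all reads in replicate 1 and 63.2% in replicate 2, were counted in no gene. The predicted folding energies of the hairpins ranged from -46.9 kcal/mol for Mir501 to -28.5 kcal/mol for Mir362, with Mir532 between them at -33.2 kcal/mol. Their GC content ranged from 46.2% for Mir362 to 55.9% for Mir188.

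Replicate 1 held 1157420 reads on the sense strand of microRNA genes and replicate 2 held 1193393. Levels are given as CPM, the reads of a gene scaled to 1000000 sense reads, so that 1 read is worth 0.864 CPM in replicate 1 and 0.838 CPM in replicate 2. The skeletal muscle marker list held 3.87% of the sense reads in replicate 1 and 3.73% in replicate 2, led by Mir206, the microRNA specific to skeletal muscle. Mir486 at 4429 CPM and Mir499, which lies in a myosin gene, at 423 CPM came next on average. Its Mir1a and Mir133 loci were low, at 48.5 CPM or less on average, but share runs of 20 bases with other places, so that their levels are uncertain. Endothelial Mir126a held 8.08% and 13.8%, and the smooth muscle pair Mir143 and Mir145a held 5.08% and 4.21%, in replicates 1 and 2. The 4 leukocyte markers, led by Mir155, held 0.318% and 0.225%, in replicates 1 and 2. After the TMM scaling described below, their summed reads were 1.14-fold higher in replicate 1 (95% interval 1.09 to 1.20), beside 1.14-fold for the sum of the Clcn5 cluster. Singly, Mir150 and Mir223 had ratios of replicate 1 over replicate 2 of 1.31, Mir155 of 1.05 and Mir142 of 0.720. The summed ratio was 0.839 for the skeletal muscle list, 0.474 for Mir126a and 0.975 for the smooth muscle pair. It was 0.866 for the erythroid, 0.566 for the nerve, 0.493 for the heart and 0.770 for the liver markers. The erythroid pair Mir451a and Mir144 held 0.0163% and 0.0153% of the sense reads, in replicates 1 and 2. Of the 7 nerve markers, Mir128-1 was detected, with 341 reads in replicate 1 and 501 in replicate 2. Its mean was 357 CPM, above that of Mir532, and it was higher in replicate 2 (exact binomial adjusted p = 2.67e-15). A stretch of 20 bases of Mir128-1 recurs in another microRNA gene, which leaves its level, its place above Mir532 and its ratio uncertain. The same limit holds for the summed nerve ratio, since Mir128-1 made up 99.9% of that list. Of the other nerve markers, Mir9-1 had 1 read in replicate 2, and the 5 remaining Mir9 and Mir124a loci had no read in either library. The Mir9 and Mir124a loci also share runs of 20 bases with other places, so that these counts do not show absence. The heart microRNA Mir208a averaged 14.8 CPM, and the liver microRNA Mir122 averaged 10.6 CPM. In such bulk tissue, fewer cells of a type and less RNA per cell cannot be told apart. The part of these cell types in the levels of the cluster was not tested.

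As a whole the Clcn5 cluster was a small share of the counted sense microRNA reads, which leave out reads that align to several places. It took 573 reads in replicate 1, which is 0.0495% of the sense reads (exact Clopper-Pearson 95% interval 0.0455% to 0.0537%). In replicate 2 it took 419 reads, or 0.0351% (0.0318% to 0.0386%). The mean was 0.0423% ± 0.0102 (SD, n = 2). The intervals of the 2 libraries do not overlap on this scale. After the TMM scaling described below, the summed reads were 1.14-fold higher in replicate 1 (95% interval 1.00 to 1.30). These intervals cover counting error only, since PCR copies of 1 molecule could not be told from separate molecules. All reads came from the strand of the genes: the opposite strand had 0 reads over the 5 genes in both libraries. With 0 reads, a level of up to 2.59 CPM is still possible in replicate 1, and of up to 2.51 CPM in replicate 2 (3 counts of the sense total).

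Mir532, the first hairpin of the cluster, was its most abundant gene. It had 364 reads in replicate 1 and 297 in replicate 2, which are 314 and 249 CPM, or 282 ± 46.4 CPM (SD, n = 2). It ranked 90 among all 2202 genes and stood at or above 72.3% of the detected ones. Mir501, the gene described in muscle progenitors, followed with 155 reads in replicate 1 and 57 in replicate 2, or 134 and 47.8 CPM. Its mean was 90.8 ± 60.9 CPM (SD, n = 2) at rank 133, above the median of 48.5 CPM over detected genes. Its level in replicate 1 was well above that in replicate 2, and even so Mir501 lay below Mir532 in each library.

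Mir500 and Mir188 were lower and alike on average. Mir500 had 27 reads in replicate 1 and 28 in replicate 2, or 23.3 and 23.5 CPM, with a mean of 23.4 ± 0.0953 CPM (SD, n = 2). That SD understates the counting error: the exact Poisson 95% intervals were 15.4 to 33.9 CPM in replicate 1 and 15.6 to 33.9 CPM in replicate 2. Mir188 had 20 reads in replicate 1 and 35 in replicate 2, or 17.3 and 29.3 CPM, with a mean of 23.3 ± 8.52 CPM. The values of Mir500 lie between those of Mir188, so these neighbours in the order did not differ beyond their spread. Mir362 was the lowest, with 7 reads in replicate 1 and 2 in replicate 2, which are 6.05 CPM (exact Poisson 95% interval 2.43 to 12.5) and 1.68 CPM (0.203 to 6.05). In the order Mir532, Mir501, the Mir500 and Mir188 pair, and Mir362, the library values of 1 step did not overlap those of the next.

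**Figure D1:**
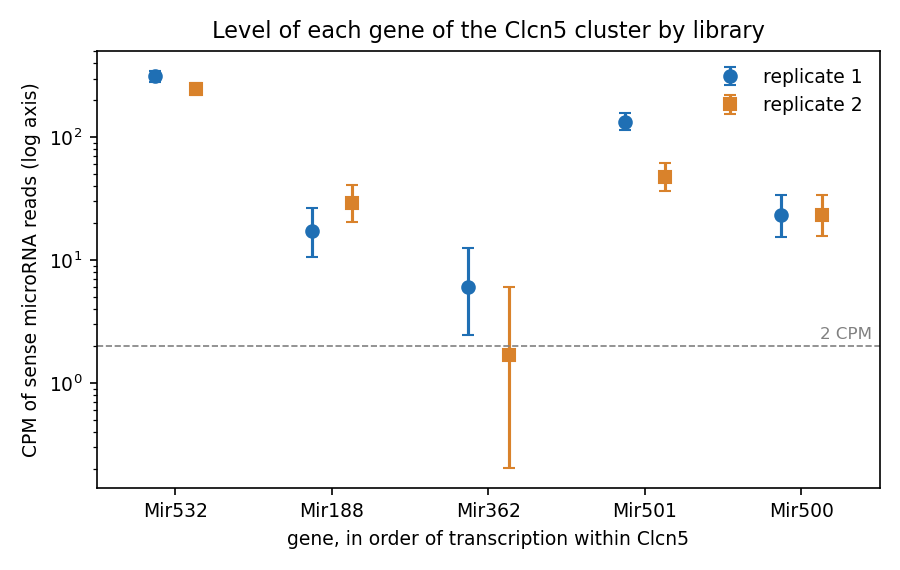
CPM of each gene of the cluster (log axis) in replicate 1 (circles) and replicate 2 (squares), with exact Poisson 95% intervals for counting error and a dashed line at 2 CPM. Mir532 is highest at 314 and 249 CPM, and Mir362 is lowest, with replicate 2 under the line at 1.68 CPM.

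Level did not follow position along the transcript. Mir532 was the first hairpin and the highest, and Mir188, only 345 bases further on, averaged 23.3 CPM. Mir362 and Mir501, which are 630 bases apart, were the lowest and the second highest of the cluster. These are levels of counted reads per gene. The gene rows do not separate the 5p from the 3p arm, and the host's own message was not measured in these files.

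**Figure D2:**
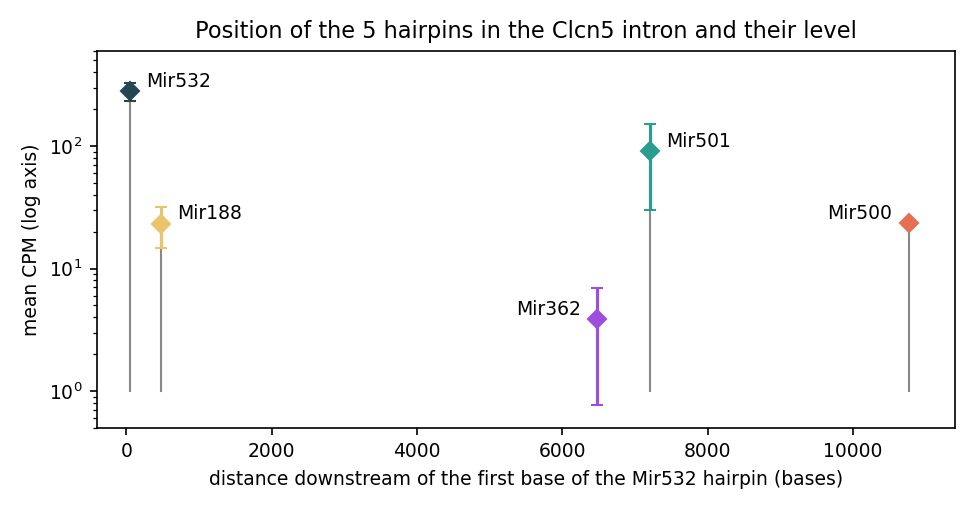
Mean CPM over 2 libraries (log axis, bars give the SD) against the distance in bases downstream of the first base of the Mir532 hairpin, with 1 diamond per gene. Neighbouring genes differ in level along the intron, with Mir532 at 282 CPM, Mir188 at 23.3, Mir362 at 3.86, Mir501 at 90.8 and Mir500 at 23.4.

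Detection was set at a level of at least 2 CPM in each library. By this limit 4 of the 5 genes were detected, against 14.6% of all 2202 microRNA genes. Mir362 missed the limit in replicate 2 with its 2 reads. On chromosome X, 31 of 142 genes were detected. The genes next to Mir532 in the order of mean CPM were Mir15b at 304 ± 95.7 and Mir351 at 302 ± 136 above it, and Mir1306 at 269 ± 8.84 and Mirlet7c-1 at 264 ± 99.0 CPM below it (SD, n = 2). The means of all 4 lie within 1 SD of Mir532. By distance of log2(CPM + 1) over the 2 libraries, the genes most like Mir532 were Mir338 at 0.206, Mir1306 at 0.206 and Mir1843b at 0.267. The levels of Mirlet7c-1 and Mir1843b are uncertain, because each has 20 bases in a row that also occur at another locus. With only 2 libraries of 1 group this likeness is one of level.

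The make-up of the cluster's reads needs no scaling between libraries. Mir532 made up 63.5% of them in replicate 1 (exact Clopper-Pearson 95% interval 59.4% to 67.5%) and 70.9% in replicate 2 (66.3% to 75.2%). Mir501 made up 27.1% in replicate 1 (23.5% to 30.9%) and 13.6% in replicate 2 (10.5% to 17.3%). Mir188 went the other way, with 3.49% in replicate 1 (2.14% to 5.34%) and 8.35% in replicate 2 (5.89% to 11.4%). For Mir501 and Mir188 the intervals of the 2 libraries do not overlap, while those of the other 3 genes do. Mir500 held 4.71% and 6.68%, and Mir362 held 1.22% and 0.477%, in replicates 1 and 2. Per 100 reads of Mir532, Mir501 had 42.6 in replicate 1 and 19.2 in replicate 2, and Mir188 had 5.49 and 11.8.

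**Figure D3:**
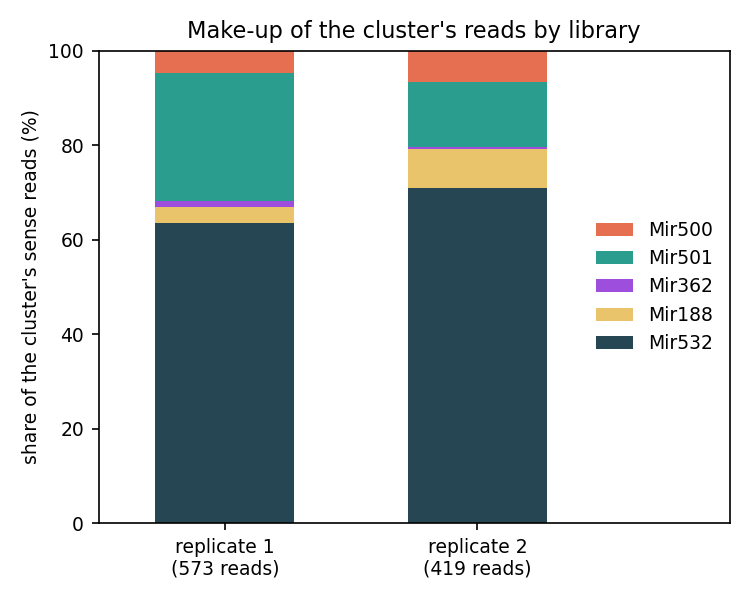
Share (%) of the cluster's sense reads in each gene, with 1 stacked bar for replicate 1 (573 reads) and 1 for replicate 2 (419 reads). The Mir501 section takes 27.1% of the bar of replicate 1 and 13.6% of that of replicate 2, and the Mir188 section takes 3.49% and 8.35%.

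The difference between the libraries was taken for each gene after TMM scaling, with a two-sided exact binomial test adjusted by Benjamini-Hochberg over all 321 detected genes. Mir501 was 2.27-fold higher in replicate 1 (95% interval 1.66 to 3.13, exact binomial adjusted p = 1.79e-07). Mir188 was higher in replicate 2 by 2.10-fold (1.18 to 3.84, exact binomial adjusted p = 0.026). Mir532 had a ratio of replicate 1 over replicate 2 of 1.02 (0.874 to 1.20, exact binomial adjusted p = 0.91), and the upper end of its interval lies below the lower end for Mir501. Mir500 had a ratio of 0.804 (0.456 to 1.42, exact binomial adjusted p = 0.59). Mir362, outside the test, had a ratio of 2.92 with a counting interval of 0.556 to 28.8.

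Thus 2 of 4 detected genes of the cluster passed, 1 in each direction, where 37.4% of all detected genes passed and 18.7% did so with the higher level in replicate 1. The cluster's share of called genes is near this background. The median log2 ratio of its 4 detected genes was -0.14, and that of all detected genes was 0.013. The test counts sampling noise only, whereas the libraries differed more widely: the common coefficient of variation over detected genes was 33.8% by edgeR. With that spread allowed for in the exact test of edgeR, a setting chosen after seeing the data, 0 of the 4 genes passed. Only 5 of all 321 detected genes passed there, so 0 of 4 is not particular to the cluster. Of the 4 genes, 0 had an unadjusted p under 0.05. The unadjusted edgeR p was 0.12 for Mir501 and 0.21 for Mir188, and each had an edgeR adjusted p of 1. The spread used there includes the difference being tested, since it was estimated from the same 2 libraries. At a smaller dispersion of 0.01, a coefficient of variation of 10%, Mir501 passed (edgeR adjusted p = 0.0012) and Mir188 did not (edgeR adjusted p = 0.11). That setting called 53 of the 321 detected genes. With total sense counts as the only scaling, Mir188 did not pass (exact binomial adjusted p = 0.12) and Mir532 did, with a log2 ratio of 0.34 (exact binomial adjusted p = 0.0072). The called genes of the cluster were then 2 with the higher level in replicate 1 and 0 with the higher level in replicate 2. Of all 321 detected genes, 149 were then called, 114 higher in replicate 1 and 35 higher in replicate 2. That scaling moves the median log2 ratio of all detected genes to 0.30.

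Few genes of like level had ratios as far from 0 as Mir501, and more had ratios as far as Mir188. Among 59 other detected genes with a mean CPM within 2-fold of Mir501, 4 had a log2 ratio at least as far from 0, and 17 passed the test. Among 78 such genes around Mir188, 20 had one as far from 0, and 21 passed.

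**Figure D4:**
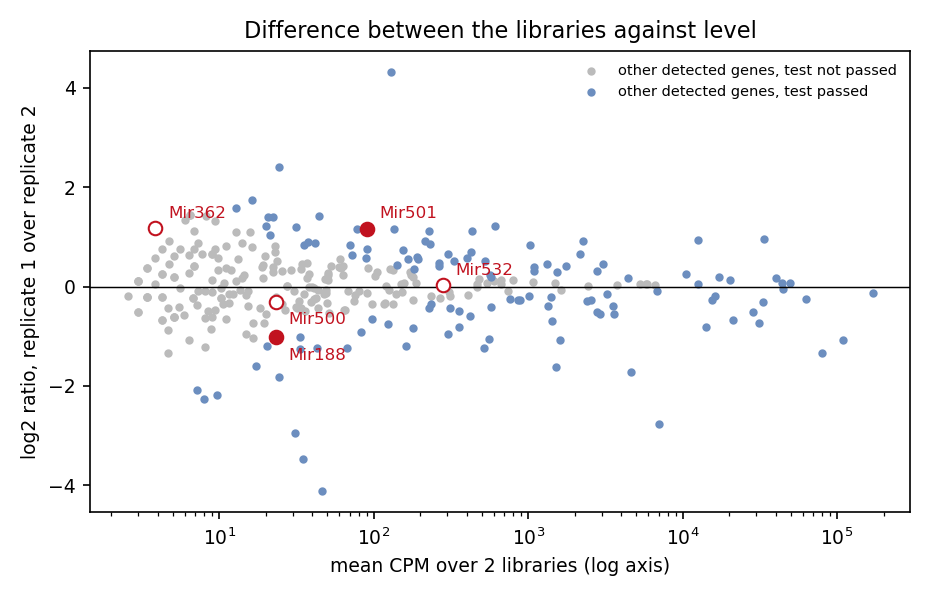
Log2 ratio of replicate 1 over replicate 2 after TMM scaling against mean CPM (log axis), with 1 small point per other detected gene (blue where the exact binomial test passed, grey where it did not) and large red circles for the cluster (filled where the test passed). Mir501 stands at 1.17 and Mir188 at -1.02, on opposite sides of 0, and Mir532 stands at 0.031. Mir362 is drawn at 1.17 although it was not detected in replicate 2.

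Other X-linked clusters gave a measure of how far neighbouring microRNA genes differ. The cluster of Mir322, Mir503, Mir351, Mir542, Mir450-1, Mir450-2 and Mir450b, known for its part in muscle differentiation, held 0.308% of the sense reads in replicate 1 and 0.324% in replicate 2, above the Clcn5 cluster in each library. The Mir221 and Mir222 pair held 0.0969% in replicate 1 and 0.0331% in replicate 2. The cluster of Mir106a to Mir363, a relative of the Mir17-92 cluster, held 0.00847% and 0.00813%, below the Clcn5 cluster in each. The share of a cluster taken by its leading gene was 66.6% for Mir532 in the Clcn5 cluster, against 87.8% for Mir322, 93.2% for Mir221 and 71.5% for Mir92-2. Mir92-2 shares a run of 20 bases with another place, and its level is uncertain.

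Members that moved in opposite directions occurred in the Mir322 cluster too. There Mir351 was higher in replicate 1 by 1.57-fold, with an exact binomial adjusted p of 4.13e-08, and Mir322 was higher in replicate 2 by 1.42-fold, with an adjusted p of 8.87e-44 in the same exact test. Mir221 and Mir222 were both higher in replicate 1, by 2.34-fold and 2.74-fold, with adjusted p of 8.16e-49 and 1.70e-05 in the exact test. In the Mir106a cluster, Mir363 and Mir20b passed with the higher level in replicate 2, on 4 and 3 reads in replicate 1. These directions and calls held with total sense counts only, where Mir92-2 also passed with the higher level in replicate 1 (exact binomial adjusted p = 0.0126). Whether the Clcn5 cluster differs from these in its spread was not tested.

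**Figure D5:**
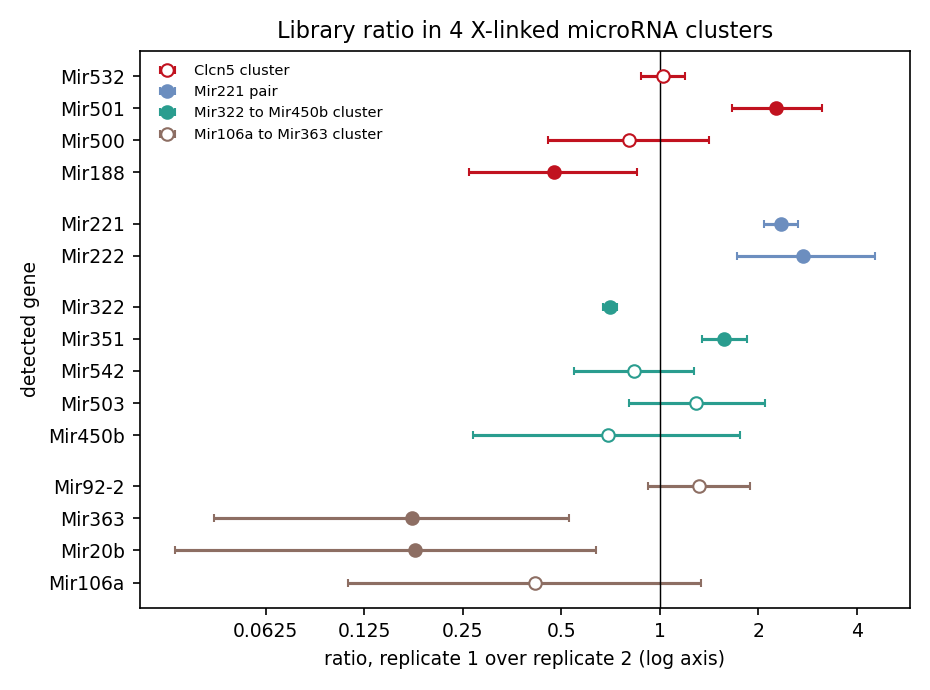
Ratio of replicate 1 over replicate 2 after TMM scaling (log axis) for each detected gene of 4 X-linked clusters, with exact 95% intervals for counting error and filled points where the exact binomial test passed. In the Clcn5 cluster Mir501 lies at 2.27 and Mir188 at 0.476, and the intervals of Mir532 and Mir500 include 1.

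Among 18 microRNAs known from muscle progenitors and regeneration, 16 were detected, 4 passed with the higher level in replicate 1 and 6 with the higher level in replicate 2, beside 18.7% of all detected genes in each direction. With total sense counts only, these counts were 6 and 4, beside 114 and 35 of all 321 detected genes (46.4% in either direction). Their median log2 ratio was 0.089, beside 0.013 for all detected genes. The list held 4.83% of the sense reads in replicate 1 and 5.73% in replicate 2, of which Mir206 was the main part at 32940 ± 12.0 CPM (SD, n = 2). That small SD is of levels without TMM scaling. After TMM scaling, Mir206 had a ratio of replicate 1 over replicate 2 of 0.809 and was among the genes that passed. With total sense counts only it did not pass, so the call of Mir206 depends on the scaling. Mir195a followed at 7010 ± 6868 CPM and Mir486 at 4429 ± 1022 CPM. Mir195a had 2154 CPM in replicate 1 and 11867 CPM in replicate 2, so its mean hides a wide spread. Mir31, which restrains Myf5 in quiescent mouse satellite cells, averaged 27.3 ± 4.20 CPM, and Mir489, linked to satellite cell quiescence in mice, had no read in either library. Mir31 and Mir489 were chosen after their values were seen. Mir501 at 90.8 CPM lay above Mir31 in each library.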

How the data were processed

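Per the deposited text descriptions, the authors used the assembly mm10 and the annotation GENCODE M21. The deposited values are raw read counts, in whole numbers, for each microRNA gene. For the aligner, the counter and their versions: not given in the sources used here. Each file has count columns for both strands, for the gene's strand (column 3, used here) and for the opposite strand. It opens with 4 lines of totals for reads in no gene, with 81.1% and 82.0% of the reads of replicates 1 and 2, and these stayed out of library sizes and tests. The layout is that of STAR gene counts.

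CPM was computed over sense reads. TMM factors (1.11 and 0.899 for replicates 1 and 2) came from edgeR 4.0.16 in R 4.3.3, and size factors from DESeq2 1.42.0. The quasi-likelihood test of edgeR needs replicates on each side and could not be used between 2 libraries. Log2 ratios had a pseudocount of 1 CPM, and the threshold was an adjusted p of 0.05. Python 3.11.15, scipy 1.17.1 and ViennaRNA 2.7.2 served for the rest. The test was checked on simulated counts with sampling noise only, so that false calls under a wider spread between libraries were not checked.

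The genes and lists were chosen with earlier results of these data known. The genes named were the cluster, its neighbours in level, and up to 3 of the most abundant members of the regeneration list and of each X-linked cluster, and exceptions are stated. Of the cell type marker lists, the leading members and low loci are named. Of the list symbols, 4 were matched through RefSeq synonyms. A search of the whole genome for the mature sequences was planned and was made in GENCODE transcripts only.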

Additional observations from a re-analysis of the deposited data

How the results depend on the processing

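Mir501 kept its direction and passed the exact binomial test in the alternatives run for its ratio, with log2 ratios of replicate 1 over replicate 2 from 1.13 to 1.47. Mir188 ranged from -1.07 to -0.73 and lost its call with total sense counts only and with the exact test of edgeR at dispersion 0.01, so that 1 member differed by the edgeR test. With the exact test of edgeR at the common dispersion, added after seeing the data, 0 members differed and 5 of 321 genes were called. The edgeR test at dispersion 0.01 called 53 of 321 genes, against 120 by the exact binomial test. With total sense counts only, 149 genes were called, 114 higher in replicate 1 and 35 higher in replicate 2, against 60 and 60 with TMM. Under that scaling the called members were Mir501 and Mir532 in place of Mir501 and Mir188. With reads of both strands, the ratio of Mir532 changed sign to -0.0076, with no call in either setting. The cluster's mean share was 0.060% with reads of both strands, 0.0569% without genes sharing a run of 20 bases, and 0.00784% over all reads. In each case the denominator differs while the members' own reads are the same. Without replicate 1 the share was 0.0351%, and without replicate 2 it was 0.0495%. The number of detected members moved by less than 1.5 times in the alternatives run for it, but the place of Mir362 depended on the setting. All 5 members counted as detected with reads of both strands, with no filter, without genes sharing a run of 20 bases and without replicate 2. The number stayed at 4 with a filter of 10 CPM and without replicate 1. Levels of 2 to 35 reads, as at Mir362, Mir188 and Mir500, are limited by depth. No paired analysis was possible because the 2 libraries form 1 group.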
